A study of Mus musculus with 48 samples.

Results

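The 27 genes described here encode the enzymes of cholesterol synthesis and the proteins that set the activity of SREBP2, the transcription factor that drives them. The set was selected on the RYGB against sham differences of these same libraries, which were known when it was drawn up, and its members were then found by gene name and Ensembl ID. Their differences between RYGB and sham are therefore a description, and no count over them is independent evidence of a direction. Liver and jejunum list all 27, and each of the other 4 tissue tables lists 26, with no row for Idi1. The 6 tables list 15541 genes between them. Every member with a row had a mean of at least 1 CPM, the read count of a gene scaled to the total of its library, and was tested.

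The study compared Roux-en-Y gastric bypass (RYGB) with sham surgery in male diet-induced obese C57Bl6 mice. All mice had been fed a high fat diet and were given a liquid elemental diet for 9 days after either operation. The labels add a return to high fat diet, and mice were fasted before tissue was taken at 10 am. The RYGB and sham groups held 4 and 4 libraries in liver, in subcutaneous white adipose tissue (WAT) and in gastrocnemius muscle, 3 and 4 in the villi of duodenum and jejunum, and 5 and 5 in ileal villi. The villi were scraped after ice-cold EDTA, so that these libraries hold the cells that a scraper removes and not the whole wall. The labels do not say which libraries of different tissues came from 1 mouse.

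Cells make cholesterol from acetyl-CoA through mevalonate, isoprenoid diphosphates, squalene and lanosterol. When sterol is low in the endoplasmic reticulum, Scap escorts SREBP2 (gene Srebf2) to the Golgi, where the proteases encoded by Mbtps1 and Mbtps2 release its active part, and sterol-bound Insig proteins hold the complex back. Liver and small intestine are major sites of cholesterol synthesis, and in the intestine the pathway is known to respond to the sterol and bile acid delivered by the diet.

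The deposited tables give CPM rounded to 0.1, with no read totals, so the depth behind a value is unknown and no counting interval can be given. A DEG is a gene with an adjusted p under 0.05 and a fold change of at least 1.5 by limma on log2(CPM + 1), adjusted over all genes tested in its tissue. All log2 fold changes are RYGB minus sham on that scale, which understates the change of low genes, and errors are SE unless SD is given. DEGs made up 7.08% of all liver genes tested, 24.1% of WAT genes and 0% of muscle genes. The share was 0.00922% for duodenum, 9.75% for jejunum and 6.05% for ileum. Among the DEGs the share that was higher after RYGB moved with scaling, from 81.8% to 65.0% in liver, from 61.8% to 49.6% in WAT and from 27.1% to 46.9% in ileum when libraries were scaled to a common median ratio. All 8 markers listed for each labelled tissue (hepatocytes, adipocytes, muscle fibers, villus enterocytes) had a row in its table. All 8 adipocyte markers also had a row in muscle, so that a row by itself does not test the tissue. The labels do not say that replicates came from separate mice, so that p-values measure only the spread between these samples, which may be technical. In bulk tissue, fewer cells of a type and less RNA per cell cannot be told apart.

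The members differed most in jejunum. There, 15 of 27 members were DEGs and all 15 were higher after RYGB, beside 9.75% of all genes tested that were DEGs and 4.62% that were DEGs with a higher level. Without Idi1, which is listed there through its RYGB libraries, 14 of 26 were DEGs. In WAT 3 of 26 members were DEGs, in ileum 2 of 26, and in liver, muscle and duodenum none. The median log2 fold change over the members was 1.51 in jejunum, where the median over all genes tested was -0.04. It was -0.71 in duodenum (all genes 0.12), -0.09 in liver (0.13), 0.29 in WAT (0.11), -0.06 in muscle (0.05) and 0.29 in ileum (-0.09).

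**Figure D1:**
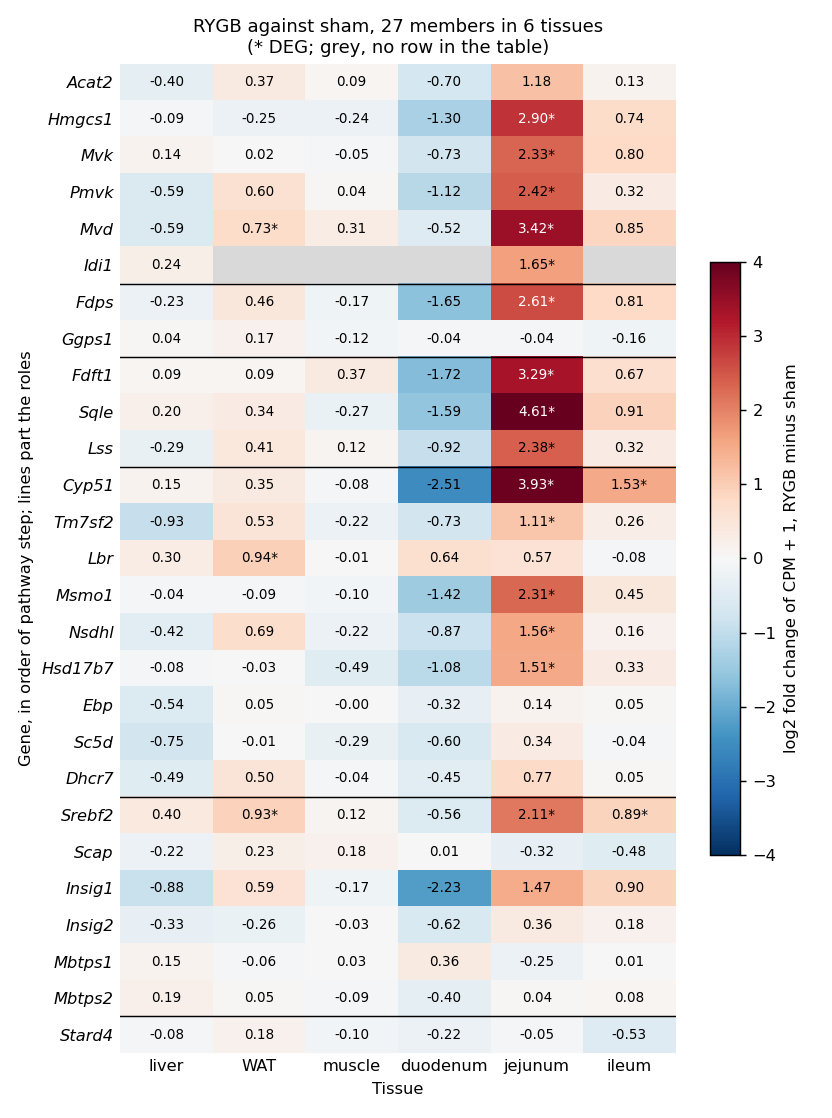
Log2 fold change of CPM + 1 (RYGB minus sham, color scale from -4 to 4) of the 27 members, in order of pathway step, in 6 tissues. Stars mark DEGs and grey marks a gene with no row. The jejunum column holds 15 of the 20 stars, from Tm7sf2 at 1.11 to Sqle at 4.61, and the duodenum column holds no star with values down to -2.51 for Cyp51.

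The first enzymes of the pathway were higher in the jejunum of the RYGB group. Hmgcs1, which makes HMG-CoA from acetoacetyl-CoA and acetyl-CoA, had 443.6, 881.9 and 630.8 CPM in the 3 RYGB libraries against 63.7, 176.2, 63.8 and 67.3 CPM in the 4 sham libraries. Every RYGB library was above every sham library, and the log2 fold change was 2.90 ± 0.37. Mvd, which decarboxylates mevalonate diphosphate, had 29.3, 57.9 and 78.3 CPM after RYGB and 2.3, 8.9, 2.4 and 4.1 CPM after sham, a log2 fold change of 3.42 ± 0.43. The mevalonate kinases Mvk and Pmvk differed by 2.33 ± 0.52 and 2.42 ± 0.45 in the same direction. Mvk was 18.3, 18.7 and 29.6 CPM against 1.9, 13.1, 1.6 and 2.9 CPM, and Pmvk 25, 40.6 and 48.8 CPM against 4.0, 15.9, 2.9 and 6.6 CPM. Neither of the kinases overlapped between the groups, and in both the second sham library lay nearest to the RYGB values.

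Idi1, the isomerase that makes the activated isoprene unit, was low in jejunum, at 1.9, 3.9 and 5.7 CPM after RYGB and 0.1, 1.4, 0.3 and 0.3 CPM after sham. Every gene in the deposited tables reaches 1 CPM in a number of libraries no smaller than the smaller group. Only 1 sham library of Idi1 reached 1 CPM in jejunum, so that Idi1 was listed through its 3 RYGB libraries. Such a listing favors genes that are higher after RYGB, and the difference of Idi1 is no evidence. Its log2 fold change was 1.65 ± 0.34, and 2.94 with a pseudocount of 0.1. Acat2, the cytosolic thiolase that opens the pathway, had 9.6, 16.1 and 18.6 CPM against 5.5, 11.0, 3.1 and 5.4 CPM, with a log2 fold change of 1.18 ± 0.36 that missed the threshold (limma adjusted p = 0.0656). Of the 50-base stretches in Acat2 transcripts, 39.1% also occur in other genes, Acat3 above all, so that its count may be split between copies. The same holds for 25.3% of Idi1 stretches, shared most with Gm13502, and for 26.2% of Fdps stretches, shared most with Gm43738.

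At the branch point, Fdps and Ggps1 behaved differently. Fdps makes farnesyl diphosphate, the precursor of both sterols and prenyl groups, and had 30.9, 52.7 and 66.3 CPM after RYGB against 3.8, 23.6, 2.9 and 7.8 CPM after sham (log2 fold change 2.61 ± 0.56). Ggps1, which takes farnesyl diphosphate away from sterols to geranylgeranyl groups, had 8.5, 14.7 and 10.7 CPM against 13.5, 12.1, 9.5 and 10.7 CPM. Its log2 fold change was -0.04 with a 95% interval from -0.55 to 0.47, and the groups overlapped.

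The 3 enzymes from farnesyl diphosphate to lanosterol were all DEGs. Sqle, the squalene epoxidase that is one of the rate-limiting steps, showed the largest log2 fold change among the members, 4.61 ± 0.50. It had 156.7, 237.5 and 321.6 CPM after RYGB and 4.4, 26.5, 6.5 and 6.1 CPM after sham. Fdft1, squalene synthase and the first step committed to sterols, had 52.4, 75.0 and 81.0 CPM against 3.5, 19.1, 3.7 and 5.0 CPM (3.29 ± 0.47). Lss, which closes the rings to lanosterol, had 20.5, 44.2 and 52.6 CPM against 4.5, 16.4, 4.1 and 4.5 CPM (2.38 ± 0.46). In all 3 the lowest RYGB library lay above the highest sham library. Fdft1 transcripts share 26.5% of their 50-base stretches with other genes, more with Ctsb than with any other.

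After lanosterol, 5 of 9 enzymes were DEGs, and the last steps were among those that were not. Cyp51, the lanosterol demethylase, had 253.2, 342.8 and 423.9 CPM after RYGB against 9.4, 115.2, 11.6 and 14 CPM after sham (3.93 ± 0.70). Msmo1, which oxidizes the methyl groups that follow, had 240.4, 343.1 and 314.6 CPM against 43.1, 105.1, 43.3 and 61.9 CPM (2.31 ± 0.30). Nsdhl and Hsd17b7, the dehydrogenase and ketoreductase of the same demethylation, differed by 1.56 ± 0.32 and 1.51 ± 0.32. Nsdhl had 40.1, 51 and 61.8 CPM after RYGB and 14.6, 31.7, 13.2 and 11.5 CPM after sham. Hsd17b7 had 58.7, 88.9 and 84.0 CPM against 23.2, 48.3, 25.2 and 16.2 CPM, with no overlap in either gene. Tm7sf2, a sterol reductase, had 27.8, 23.7 and 29.3 CPM against 11.4, 17.2, 8.1 and 12.5 CPM (1.11 ± 0.24). Lbr, the nuclear envelope protein that carries the same reductase activity, had 6.0 to 16.5 CPM against 5.5 to 7.9 CPM (0.57 ± 0.30, limma adjusted p = 0.284).

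The late enzymes Ebp, Sc5d and Dhcr7, which move and reduce the ring double bonds, met no threshold in jejunum. Ebp had 49.7 to 59.2 CPM after RYGB and 38.1 to 65.4 CPM after sham, a log2 fold change of 0.14 with a 95% interval from -0.34 to 0.63. Sc5d had 254.0, 260.4 and 250.7 CPM against 208.3, 235.0, 181.2 and 183.7 CPM and did not overlap, with a log2 fold change of 0.34 that is below the fold of a DEG. Dhcr7, the last step, had 44.4, 61.6 and 79.4 CPM against 29.2, 65.7, 30.4 and 24.9 CPM (0.77 ± 0.33, limma adjusted p = 0.177). Whether late and early enzymes differed from each other was not tested.

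Among the control genes, Srebf2 stood apart. Srebf2 had 125.2, 196.3 and 216.7 CPM after RYGB and 35.4, 67.1, 36.0 and 29.3 CPM after sham, a log2 fold change of 2.11 ± 0.29 with no overlap. Insig1, itself a target of SREBP2, had 276.2, 173.0 and 214.3 CPM against 57.3, 257.3, 42.1 and 58.3 CPM. Its second sham library lay within the RYGB range, and the log2 fold change of 1.47 ± 0.52 missed the threshold (limma adjusted p = 0.109). The other 4 genes gave log2 fold changes between -0.32 and 0.36. Scap, the escort, had 14.5 to 28.6 CPM against 22.6 to 25.4 CPM, and the proteases Mbtps1 and Mbtps2 and the second Insig gene, Insig2, overlapped between the groups as well. Stard4, a cytosolic sterol carrier, had 185.6 to 238.8 CPM against 186.6 to 246.3 CPM, with a 95% interval of its log2 fold change from -0.43 to 0.33.

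In all, 16 of 27 members had every jejunal RYGB library above every sham library, beside 9.75% of all genes tested, and none had every RYGB library below. Without Idi1 the count was 15 of 26. The second sham library was the highest sham library for 17 of 20 enzymes, and its mean log2(CPM + 1) over 19 enzymes was 4.99 against 3.57 to 3.86 in the other 3 sham libraries and 5.57 to 6.27 in the RYGB libraries. Without it 18 members were DEGs, with Acat2, Dhcr7 and Insig1 added, beside 8.17% of all genes. Without the second RYGB library, the only jejunal library sequenced on lane 2, 9 were DEGs, which is also the value within lane 1, and 4.25% of all genes tested were. Without the third RYGB library 10 were DEGs, beside 9.4% of all genes. In these 3 fits as in the others run, every member DEG was higher after RYGB. Hmgcs1, Pmvk, Mvd, Fdft1, Sqle, Cyp51, Msmo1 and Srebf2 remained DEGs whichever 1 of the 7 libraries was left out.

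**Figure D2:**
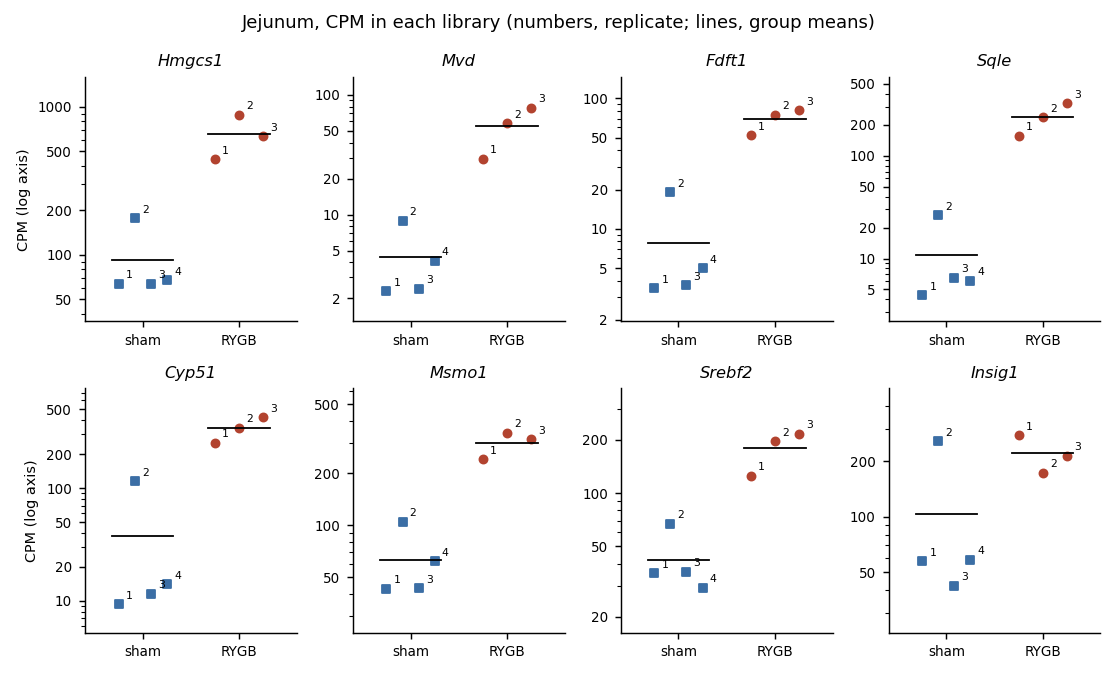
CPM (log axis) of 8 members in the 4 sham and 3 RYGB jejunum libraries, with replicate numbers and group means as lines. For 7 of the 8 genes all RYGB points lie above all sham points, and the second sham library is the highest of the sham points in each panel, reaching 257.3 CPM for Insig1.

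Cell type markers moved with the jejunal groups in some lists. The villus enterocyte list summed to 36007 to 60401 CPM after RYGB and 63256 to 83761 CPM after sham. Only 1 of its 8 genes, Apoa4, was a DEG, and it was lower. Apoa4 made up much of these sums, with means of 15424 and 40878 CPM, and the median log2 fold change of the list was 0.23. Of the 4 listed crypt and cycling genes none was a DEG, and their sum was 25.7 to 57.1 CPM against 21.9 to 34.0 CPM. Of 5 Paneth cell genes 4 were higher, with a sum of 113 to 235 CPM against 33.5 to 68.9 CPM. The 4 listed T cell genes were lower, at 4.5 to 9.2 CPM against 20.4 to 36.8 CPM. Defa30 was as low as 0.4 CPM after sham and Cd3d as low as 0.3 CPM after RYGB, so that each is listed through the other group. The part of these cells in the differences of the sterol genes was not tested.

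The RefSeq promoter table (build GRCm38.p6, 250 bases before to 50 after the start) held 23 of the members, all but Fdps, Fdft1, Sqle and Stard4. A total of 4 motifs were searched on both strands. The core of the sterol regulatory element, TCACNCCAC, was in 1 of the 23 windows, that of Hmgcs1, and in 1.44% of all 27025 genes with a window. The CCAAT box bound by NF-Y, the usual partner of SREBP2, was in 19 of the 23 windows (82.6%) and in 41.1% of all genes. The E box CACGTG was in 5 (Hsd17b7, Sc5d, Dhcr7, Scap and Insig1) and in 8.09% of all genes. A longer 10-base form of the sterol element, which contains the core, was in none of the 23 windows and in 0.0999% of all genes.

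The 160 bases before the start are shown for the members that were DEGs in jejunum and hold the sterol element or at least 2 CCAAT boxes there, where the stretch does not run into the gene as GENCODE draws it. They are Hmgcs1 (chr13:119690191-119690350, plus strand), Mvk (chr5:114444109-114444268, plus strand), Mvd (chr8:122443423-122443582, minus strand) and Nsdhl (chrX:72918361-72918520, plus strand). All are given 5′ to 3′ on the strand of the gene. Capitals mark the sterol element in Hmgcs1, which starts 137 bases before the gene's start, and CCAAT boxes, which read ATTGG on the other strand.
Hmgcs1: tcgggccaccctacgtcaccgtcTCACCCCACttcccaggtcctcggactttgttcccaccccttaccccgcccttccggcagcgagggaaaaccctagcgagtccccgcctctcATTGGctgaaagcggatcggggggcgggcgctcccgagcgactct
Mvk: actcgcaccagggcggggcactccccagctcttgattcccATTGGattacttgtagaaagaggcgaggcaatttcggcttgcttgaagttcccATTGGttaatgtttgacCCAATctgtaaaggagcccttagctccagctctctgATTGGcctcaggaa
Mvd: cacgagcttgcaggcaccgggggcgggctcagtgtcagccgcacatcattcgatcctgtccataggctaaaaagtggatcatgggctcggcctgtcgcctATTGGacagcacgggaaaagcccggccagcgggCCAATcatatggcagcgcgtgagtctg
Nsdhl: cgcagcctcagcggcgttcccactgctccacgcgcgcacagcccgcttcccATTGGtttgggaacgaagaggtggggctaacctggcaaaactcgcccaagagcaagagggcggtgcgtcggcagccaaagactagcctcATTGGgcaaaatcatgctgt
Mvk holds 4 CCAAT boxes in this stretch, with Mvd and Nsdhl at 2 each and Hmgcs1 at 1. Such matches describe the letters and are not binding sites.

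Other genes of sterol control were taken from lists of the pathway drawn up beside the members. Aacs, which activates acetoacetate for lipid synthesis, had 18.0, 31.0 and 41.3 CPM in jejunum after RYGB and 4.2, 6.2, 4.9 and 5.6 CPM after sham (2.26 ± 0.28). All 3 RYGB libraries lay above all 4 sham libraries.

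Of 9 tested genes of LXR and its targets, which answer to excess sterol, 5 were DEGs and all 5 were lower in jejunum, where 5.13% of all genes were DEGs with a lower level. Scd1 and Mylip, under 1 CPM in 2 of 3 RYGB libraries, are listed through the sham libraries. Such a listing favors genes that are lower after RYGB, and their differences are no evidence. Without them 3 of 7 were DEGs. Scd1, a fatty acid desaturase, had 1.5, 0.3 and 0.1 CPM after RYGB against 22.3, 365.8, 73.0 and 38.4 CPM after sham. Srebf1, the gene of the lipogenic SREBP1, had 127.8, 72.7 and 65.9 CPM against 444.6, 314.2, 276.1 and 468.2 CPM, opposite in direction to Srebf2. The sterol exporters Abcg5 and Abcg8 differed by -0.99 ± 0.21 and -1.25 ± 0.21, and Mylip, a ubiquitin ligase, by -1.99 ± 0.43. Of 8 genes for degradation and retention of sterol sensors, Rnf145 was higher (1.62 ± 0.23) and Erlin1 lower (-0.96 ± 0.21). Nus1, needed for dolichol synthesis, was the 1 DEG among 10 isoprenoid users (1.06 ± 0.16), and none of 12 sterol storage and movement genes was a DEG.

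In duodenum no member was a DEG, and the sham libraries were spread more widely than the RYGB libraries for Cyp51, Insig1, Hmgcs1 and Sqle. Cyp51 had 317.6, 204.4, 73.2 and 8.9 CPM in the 4 sham libraries and 24.4, 8.6 and 11.9 CPM in the 3 RYGB libraries. The first 3 sham libraries were above all RYGB libraries, and sham 4 lay within their range. Insig1 had 476.9, 458.1, 200.4 and 35.5 CPM after sham against 46.3, 41.0 and 38.3 CPM after RYGB. Hmgcs1 had 593.5, 376.8, 143.0 and 53.9 CPM against 91.9, 72.8 and 83.8 CPM. Sqle had 116.5, 64.2, 17.7 and 4.4 CPM against 17.1, 5.2 and 7.5 CPM, so that there only the first and second sham libraries stood well above the RYGB group.

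Of the 26 members 23 had a negative log2 fold change. The values ran from -2.51 ± 1.06 for Cyp51 and -2.23 ± 0.80 for Insig1 to 0.64 ± 0.25 for Lbr, which had 20.3, 9.8 and 14.5 CPM after RYGB and 11.4, 8.8, 8.3 and 7.1 CPM after sham. At an unadjusted p under 0.05 limma gave 9 members, 8 lower and 1 higher. Over all genes it gave 2040 of 10850, with 412 lower and 1628 higher. Tm7sf2 was the 1 member whose groups did not overlap, with 10.1, 9.4 and 9.8 CPM after RYGB below 20.3, 23.3, 14 and 12.2 CPM after sham (-0.73 ± 0.22, limma adjusted p = 0.162), beside 2.93% of all genes with every RYGB library below every sham library.

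Sham 4 was the lowest sham library for 17 of 19 enzymes and sham 1 was the highest for 14. Over 19 enzymes the mean log2(CPM + 1) was 5.80, 5.56, 4.59 and 3.66 in the sham libraries and 4.29, 3.71 and 3.93 in the RYGB libraries. When sham 4 was left out, 10 members were DEGs and all 10 were lower after RYGB (Hmgcs1, Fdps, Fdft1, Cyp51, Tm7sf2, Msmo1, Nsdhl, Hsd17b7, Sc5d and Insig1), while 6.97% of all genes tested were DEGs. Without any other single library none was.

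A pancreatic gene was high in some of these libraries. Cela1, a pancreatic elastase and the 1 listed gene of 7 acinar markers, had 1978.8, 4817.2, 9.8 and 7.1 CPM in the sham libraries and 5.9, 11.7 and 517.5 CPM in the RYGB libraries. The first and second sham libraries, the highest for the sterol genes, were also the highest for Cela1. The listed genes summed to 970679.1, 925122.4, 996971.9 and 997785.0 CPM in the sham libraries. In the RYGB libraries they summed to 996265.2, 997246.4 and 973815.5 CPM. The third sham library had Cyp51 and Insig1 above every RYGB library with Cela1 at 9.8 CPM. In the 4 libraries under 100 CPM of Cela1, chosen after seeing the data, the median log2 fold change of the members was -0.27. Over all genes it was 0.13. Sham 4, the lowest sham library for most enzymes, is among these libraries. None of the 10798 genes tested was a DEG in that fit, so that it cannot show whether the members differ there. The part of pancreatic tissue in the result was not tested further.

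**Figure D3:**
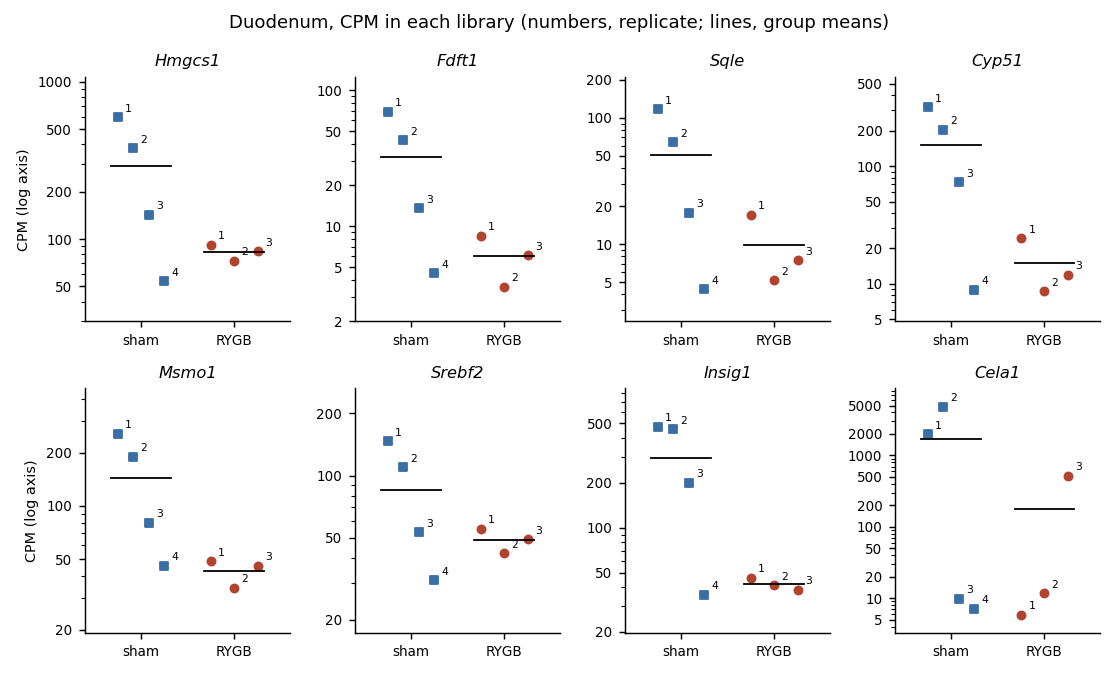
CPM (log axis) of 7 members and of the pancreatic gene Cela1 in the 4 sham and 3 RYGB duodenum libraries, with replicate numbers and group means as lines. The sham points of the members fall from sham 1 and sham 2 to sham 4, which lies at 8.9 CPM for Cyp51 beside RYGB points of 8.6 to 24.4 CPM.

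Of the duodenal crypt and cycling genes 4 of 8 were listed and none was a DEG, with a sum of 39.3 to 135 CPM after RYGB and 24.9 to 41.0 CPM after sham. No gene of the other sterol lists was a DEG in duodenum. Tm7sf2 was thus above the sham range in jejunum and below it in duodenum, a difference of 1.84 in log2 fold change between separately normalized tables that was not tested.

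In ileum 2 members were DEGs, both higher after RYGB, where 1.64% of all genes tested were DEGs with a higher level. Cyp51 had 33.5, 62.7, 48.9, 24.6 and 59.2 CPM after RYGB and 15.2, 30.2, 18.3, 5.7 and 11.7 CPM after sham (1.53 ± 0.37, limma adjusted p = 0.0299). RYGB 4 lay below the highest sham library, so that the groups overlapped. Srebf2 had 57.1, 88.1, 120.7, 82.0 and 107.3 CPM against 46.1, 68.5, 48.5, 31.1 and 48.7 CPM (0.89 ± 0.22, limma adjusted p = 0.0326), again with 1 RYGB library inside the sham range.

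The other synthesis enzymes of the ileum lay between -0.16 and 0.91 in log2 fold change, and 16 of the 19 tested were above 0. Sqle had 31.3, 39.6, 44.5, 20.3 and 40.4 CPM after RYGB and 16.7, 24.8, 32.5, 15.2 and 8.0 CPM after sham, with overlap (0.91 ± 0.32, limma adjusted p = 0.095). Hmgcs1 had a mean of 119 ± 36.8 CPM after RYGB and 70.8 ± 22.6 CPM after sham (SD, n = 5 and 5), with a limma adjusted p of 0.09. Scap went the other way, at 20.9, 22.9, 16.3, 26.3 and 27 CPM after RYGB and 32.9, 28.8, 31.3, 30.9 and 33.8 CPM after sham. Every RYGB library was below every sham library, beside 6.92% of all genes with that order. Its log2 fold change was -0.48 ± 0.14 (limma adjusted p = 0.0581). Stard4 had 97.4 to 245.5 CPM against 221.0 to 266.7 CPM (-0.53 ± 0.20, limma adjusted p = 0.115).

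All ileal RYGB libraries were sequenced on lane 1 and all sham libraries on lanes 2 and 3, so that lane and surgery cannot be told apart there. The count of 2 fell to 0 without RYGB 2, sham 1, sham 3 or sham 5, to 1 without RYGB 3, RYGB 5 or sham 4, and reached 3 without RYGB 4, while 2.91% to 7.15% of all genes were DEGs across the 10 fits. Among the other lists, Npc1l1, which takes up intestinal cholesterol, was lower (1303 to 1832 CPM after RYGB against 2573 to 3947 CPM after sham, -0.87 ± 0.16), Por, the electron donor of Cyp51 and Sqle, was higher (1.15 ± 0.27), and Gramd1a, a sterol carrier, was lower (-1.32 ± 0.32). The 3 listed ileal T cell genes were lower, at 2.2 to 9.2 CPM in sum against 11.8 to 31.4 CPM, and their part in the result was not tested.

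In liver no member was a DEG while 7.08% of all genes were. The log2 fold changes ran from -0.93 for Tm7sf2 to 0.40 for Srebf2, and 17 of the 27 were negative. Ebp had 217.4, 136.8, 156.4 and 194.4 CPM after RYGB and 252.0, 280.0, 260.6 and 218.5 CPM after sham. It was the 1 member with every RYGB library below every sham library, beside 3.05% of all genes (-0.54 ± 0.15, limma adjusted p = 0.0526). Sc5d had 730.2, 405.9, 442.3 and 555.7 CPM against 902.0, 1107.8, 628.7 and 931.1 CPM (-0.75 ± 0.22, limma adjusted p = 0.0545). Tm7sf2 had 100.3, 46.9, 44.5 and 102.4 CPM against 158.2, 153.4, 88.7 and 136.4 CPM (-0.93 ± 0.29, limma adjusted p = 0.0715).

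Insig1 had 288.2, 152.3, 108.0 and 193.4 CPM in the RYGB livers against 347.8, 361.6, 197.5 and 423.7 CPM in the sham livers (-0.88 ± 0.30, limma adjusted p = 0.0879). Srebf2 had 101.4, 97.2, 82.4 and 88.2 CPM against 78.6, 80.3, 57.0 and 65.0 CPM. All 4 RYGB values of Srebf2 lay above all sham values, as they did for 13.4% of all genes (0.40 ± 0.13, limma adjusted p = 0.0787). The early enzymes, from Acat2 to Idi1, had log2 fold changes from -0.59 to 0.24, and whether they differed from each other was not tested. Pmvk had 56.4, 39.6, 23.3 and 43.1 CPM against 63.3, 82.0, 40.1 and 57.7 CPM (-0.59 ± 0.26, limma adjusted p = 0.175), and Mvd had 16.4 to 53.9 CPM against 25 to 79.8 CPM (-0.59 ± 0.37, limma adjusted p = 0.327). Hmgcs1 had 578.8 to 1347 CPM after RYGB and 594.5 to 1544 CPM after sham, with a 95% interval of its log2 fold change from -0.80 to 0.62, and Sqle, Cyp51 and Fdft1 had intervals from -0.43 to 0.83, from -0.37 to 0.67 and from -0.49 to 0.66.

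At an unadjusted p under 0.05 limma gave 6 liver members, 5 lower and 1 higher. Over all genes it gave 3181 of 11807, with 580 lower and 2601 higher. The count of member DEGs was 4 without RYGB 1 (Ebp, Sc5d, Tm7sf2 and Insig1), 3 without sham 3 (Sc5d, Tm7sf2 and Insig1) and 1 without RYGB 4 (Tm7sf2), all lower, and 0 without each other library. In these 3 fits 10.2%, 5.81% and 8.26% of all genes were DEGs. The 4 and 3 of 27 members are larger shares than those of all genes, and the 1 of 27 without RYGB 4 is a smaller share. Since the set was selected on differences of these same libraries, the shares are a description and no evidence of a direction. The all-gene median of 0.13 shifted to -0.01 under median ratio scaling, where the member median was -0.24. Ebp was a DEG in that fit, beside 5.69% of all genes. With lane as a covariate Sc5d and Tm7sf2 were DEGs at -0.81 and -1.05, beside 9.23% of all genes. The lanes held too few libraries of each group for values within 1 lane.

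Some genes of the liver's other lists were DEGs. Acss2, Acly and Aacs, which supply acetyl and acetoacetyl units, were lower (-1.67 ± 0.35, -1.17 ± 0.32 and -1.17 ± 0.25). Among 10 LXR genes Scd1 was lower (59.1 to 607.3 CPM against 817.7 to 22110 CPM), as was Srebf1 (74.6 to 196.0 CPM against 278.1 to 331.1 CPM), and the exporter gene Abcg1 was higher (1.13 ± 0.25). Soat1, which esterifies sterol, and Rnf145 were higher too (1.13 ± 0.25 and 0.69 ± 0.15). Of the 6 macrophage genes 3 were higher in RYGB livers, with a sum of 518 to 1454 CPM against 194 to 364 CPM. Their part in these results was not tested.

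In WAT 3 members were DEGs and all 3 were higher, where 14.9% of all genes tested were DEGs with a higher level. Srebf2 had 128.8, 164.7, 160.1 and 210.2 CPM after RYGB against 101.2, 91.5, 66.0 and 85.5 CPM after sham (0.93 ± 0.17, limma adjusted p = 0.00589). Lbr had 73.7, 105.4, 105.7 and 170.9 CPM against 50, 58.9, 62.9 and 54.8 CPM (0.94 ± 0.22, limma adjusted p = 0.0139). Mvd had 18.2, 13.0, 13.4 and 14.3 CPM against 11.7, 9.3, 6.3 and 7.2 CPM (0.73 ± 0.19, limma adjusted p = 0.0191). Scap had 64.3, 72.3, 68.9 and 91.0 CPM against 63.4, 62.8, 61.1 and 62.5 CPM (0.23 ± 0.11, limma adjusted p = 0.13). These were the 4 of 26 members with all RYGB libraries above all sham libraries, beside 26.1% of all genes.

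Lymphocyte genes moved with the WAT groups. All 6 B cell genes were DEGs, with a sum of 809 to 2091 CPM in RYGB libraries and 6.7 to 16.3 CPM in sham libraries. So were all 6 T cell genes, at 266 to 1011 CPM against 9.7 to 18.1 CPM. Cd79a, Cr2 and Cd5 were as low as 0.6, 0.4 and 0.6 CPM after sham and are listed through the RYGB libraries. The lymphocyte genes differed in every RYGB library, so that lymphocyte RNA and surgery cannot be told apart for Srebf2, Lbr, Mvd and Scap. The RYGB 4 library of WAT was the lowest RYGB library for 15 of 19 enzymes, such as Nsdhl (24.4 CPM against 50.4 to 72.7 CPM in the other 3), and the highest for Lbr, Srebf2 and Scap. With RYGB 4 left out, 7 members were DEGs (Pmvk, Mvd, Tm7sf2, Lbr, Nsdhl, Srebf2 and Insig1), and without sham 1 there were 5. In those fits 18.5% and 22.7% of all genes were DEGs. Mvd was no longer a DEG without sham 4 or with lane as a covariate, which left 2 members beside 19.7% and 30.3% of all genes. The adipocyte list summed to 9362 to 21534 CPM after RYGB and 17101 to 23773 CPM after sham, with 1 of 8 genes lower. Of 6 macrophage genes 4 were lower, with a sum of 1624 to 2148 CPM against 1719 to 3092 CPM. Of 5 tested keratinocyte genes 3 were lower, with a sum over the list of 12.7 to 21.8 CPM against 9.1 to 179 CPM. Krt5 and Dsp among them, at most 0.1 and 0.3 CPM after RYGB, are listed through the sham libraries. The part of these cells in the result was not tested.

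**Figure D4:**
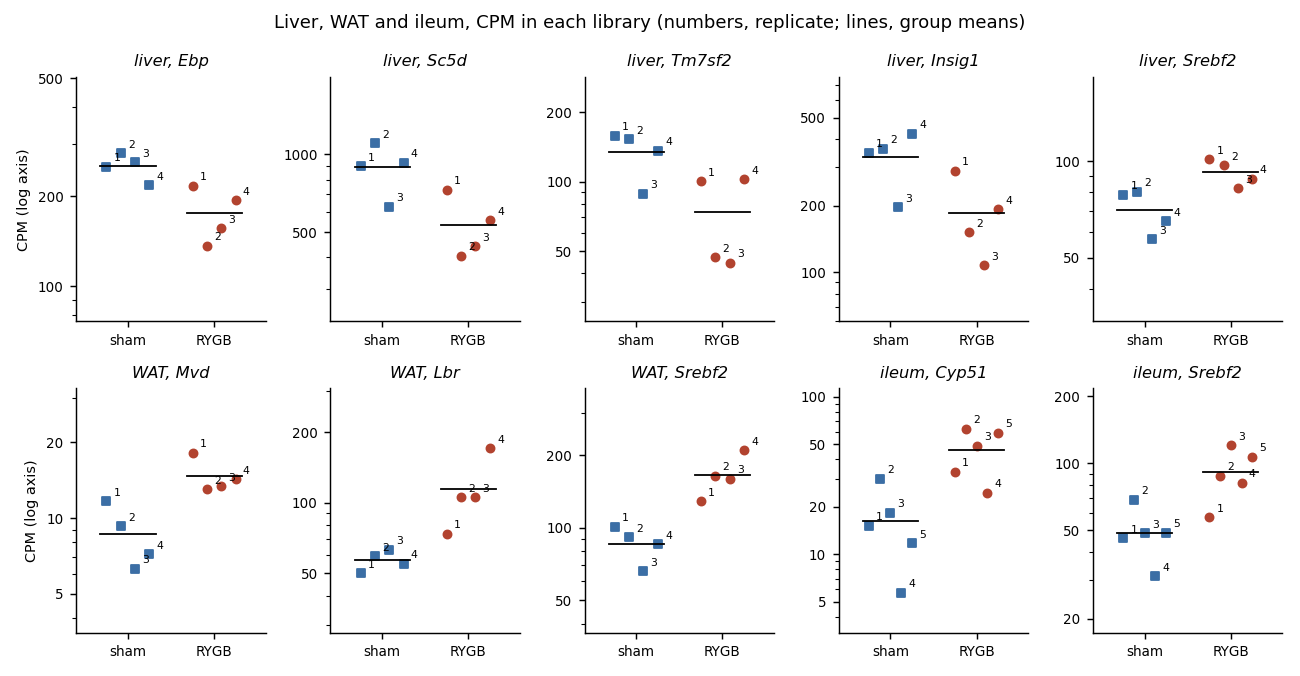
CPM (log axis) of 5 members in liver, 3 in WAT and 2 in ileum, by library, with replicate numbers and group means as lines. RYGB and sham points are apart for Ebp and Srebf2 in liver and for the 3 WAT genes, and overlap by 1 RYGB library for Cyp51 and Srebf2 in ileum.

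Of the other WAT lists, Rabggta (0.74 ± 0.14), Rnf145 (0.79 ± 0.19), Syvn1 (0.67 ± 0.12), Gramd1a (1.21 ± 0.23) and Gramd1b (0.60 ± 0.16) were higher. Lipa, the lysosomal lipase that frees cholesterol (-1.03 ± 0.25), and Scarb1, the receptor for high density lipoprotein (-0.75 ± 0.20), were lower. None of 10 listed sterol synthesis and SREBP2 target genes and none of 8 LXR genes was a DEG there.

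In muscle the members were low and no member was a DEG, in the fit reported or in any alternative run. The member median of -0.06 became 0.20 with lane as a covariate. Sham 3 was the highest muscle sham library for 15 of 19 enzymes. It was also high in adipocyte genes, with Adipoq at 119.0 CPM against 5.3, 9.1 and 16.8 CPM in the other sham libraries. Lep was at 99.8 CPM there, against 2.2, 3.5 and 6.1 CPM. None of the 8 adipocyte genes was a DEG in muscle. The part of fat RNA in the muscle values was not tested. Log2 fold changes ran from -0.49 ± 0.14 for Hsd17b7 to 0.37 ± 0.09 for Fdft1. Fdft1 had 40.4, 39.2, 40.0 and 36.1 CPM after RYGB against 34.9, 27.9, 27.9 and 29.1 CPM after sham, the 1 member with all RYGB libraries above all sham libraries, beside 4.77% of all genes (limma adjusted p = 0.126). Hsd17b7 had 7.1 to 8.0 CPM against 8.0 to 13.3 CPM (limma adjusted p = 0.175). These 2 were the members at an unadjusted p under 0.05 in limma, where 1746 of 11966 genes were.

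Levels can be set beside each other across tissues only with care, since each table was normalized by itself. The mean log2(CPM + 1) of 19 enzymes was highest in liver, at 6.96 ± 0.38 (SD, n = 4) after sham and 6.72 ± 0.43 after RYGB. Sham duodenum followed at 4.90 ± 0.98 and sham WAT at 4.88 ± 0.28, then sham jejunum at 4.02 ± 0.66, sham ileum at 3.84 ± 0.31 and sham muscle at 3.19 ± 0.17. Sham duodenum and WAT lie within each other's spread, as do jejunum and ileum, while the jejunum mean lies below all 4 sham WAT libraries, the lowest of which is at 4.59. No test was made between tables. The jejunum of the RYGB group reached 5.98 ± 0.36 (SD, n = 3). Hmgcs1, by itself, had 1022 ± 412 CPM in sham liver, 321 ± 51.3 CPM in sham WAT, 292 ± 243 CPM in sham duodenum, 92.8 ± 55.7 CPM in sham jejunum and 652 ± 220 CPM in RYGB jejunum (SD).

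**Figure D5:**
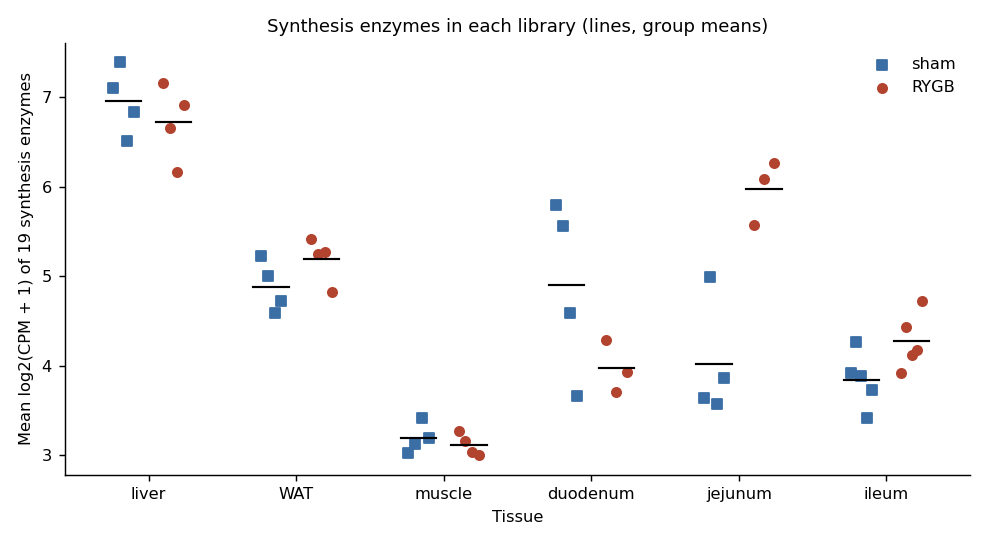
Mean log2(CPM + 1) of 19 synthesis enzymes in each library, by tissue and surgery, with lines at the group means. The 3 RYGB jejunum libraries, at 5.57 to 6.27, lie above all 4 sham jejunum libraries, at 3.57 to 4.99, and the sham duodenum libraries spread from 3.66 to 5.80.

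Per kilobase of exon, the members also differed in level within a tissue. In sham liver Hmgcs1 had 222 CPM per kb and Sc5d 183, followed by Ebp at 109 and Insig1 at 108 CPM per kb. At the other end were Mbtps2 at 1.09, Ggps1 at 1.40 and Idi1 at 2.13 CPM per kb. In sham jejunum the order was led by Sc5d at 41.5 and Stard4 at 40.3 CPM per kb, followed by Insig1 at 33.5, Ebp at 21.5 and Hmgcs1 at 20.2 CPM per kb, and the enzymes Sqle and Fdft1 were at 1.96 and 1.85 CPM per kb.

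Within groups the enzymes also varied together from library to library. The median Pearson correlation between pairs of enzymes, over deviations from the group means, was 0.90 in duodenum (7 libraries), 0.85 in liver (8), 0.82 in jejunum (7), 0.75 in WAT (8), 0.49 in ileum (10) and 0.39 in muscle (8). Over all pairs of genes it was 0.03, 0.23, 0.11, 0.10, 0.23 and 0.17 in the same order. The points share libraries and the same CPM totals, and the values are a description. Fdps was at 0.96 with the other enzymes in both liver and duodenum, and Fdft1 at 0.97 in duodenum. Ggps1 did not follow in these tissues, with -0.44 in liver and -0.38 in duodenum, nor did Lbr in liver (0.15) or WAT (-0.76).

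Srebf2 varied with the enzymes in duodenum (0.97), jejunum (0.85) and liver (0.78) but not in WAT (-0.01). Insig1 lay between 0.76 and 0.92 in liver, WAT, duodenum and jejunum, while Insig2 was at -0.40, 0.24, 0.60 and -0.16 in the same order. The proteases and Scap lay between -0.63 and 0.50 in all 6 tissues. In the sham duodenum the members had a median SD of 0.83 on the log2 scale, against 0.26 over all genes, and in sham jejunum 0.61 against 0.26. In RYGB and sham liver the median SDs were 0.50 and 0.37, against 0.20 and 0.18 over all genes. In muscle, at 0.17 and 0.21 for the members, they were close to those of all genes, at 0.16 and 0.18.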

How the data were processed

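RNA of 48 libraries (TruSeq Stranded mRNA, polyadenylated RNA) from 6 tissues was sequenced by the authors, and the processing notes name HTSeq and the build GRCm38. The aligner and the strand setting of counting are not given in the sources used here. The deposited values are CPM per gene and library, rounded by the authors to 0.1, in 1 table per tissue, each normalized separately. Every listed gene reaches 1 CPM in as many libraries as the smaller group or more, as tested on the files. Read totals are not stated, so precision rests on the number of libraries alone.

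Lines of text (4 in WAT), incomplete lines (12 in liver) and repeated lines (1 to 408 per table) were left out. Genes that averaged 1 CPM or more were fitted with limma 3.58.1 in R 4.3.3 on log2(CPM + 1), with an intensity trend, RYGB against sham within a tissue, and p-values were adjusted by Benjamini-Hochberg over all genes of the tissue. A DEG had an adjusted p under 0.05 and a fold change of at least 1.5. Alternatives were pseudocount 0.1, no minimum or a minimum of 10 CPM, median ratio scaling, lane, a replicate block and leaving out each library. Steps were tested on simulated data. Per-kilobase levels use exon lengths of GENCODE M21 (GRCm38).

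The members, gene lists and markers were chosen with earlier results of these data known. All members are named, with values per library for DEGs and for members whose groups do not overlap, and with ranges or values for others. Up to 5 DEGs per other list and tissue are named, by size of change. Some genes of the list of other sterol synthesis and SREBP2 target genes are not reported here.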

Additional observations from a re-analysis of the deposited data

Results flagged for a closer look

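A library far from the other libraries of its group was found in 14 of 263 groups of members by tissue and surgery, where chance gives about 13.2 (1 in 20). The values are the gap to the nearest library divided by the range of the group.

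In jejunum sham 2 stood high for Hmgcs1 (0.946, 176.2 CPM, next 67.3 CPM), Lss (0.938) and Cyp51 (0.848, 115.2 CPM, next 14 CPM). In WAT the low library was RYGB 4 for Mvk (0.855) and Cyp51 (0.919), and sham 3 for Hmgcs1 (0.851) and Sc5d (0.913). In duodenum sham 4 was low for Sc5d (0.854, 153.5 CPM, next 245.7 CPM). In ileum RYGB 3 was low for Mbtps2 (0.793), sham 1 high for Ggps1 (0.843) and sham 4 low for Lss (0.758). In liver RYGB 2 was low for Scap (0.894), and in muscle RYGB 4 was low for Stard4 (0.851) and sham 2 for Mbtps2 (0.921).

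In 2 members the groups did not overlap in a pair of tissues and the directions were opposite. Tm7sf2 was higher after RYGB in jejunum (log2 fold change 1.11) and lower in duodenum (-0.73), a difference of 1.84. Scap was higher in WAT (0.23) and lower in ileum (-0.48), a difference of 0.71. No test was made of either difference between separate tables, and neither Tm7sf2 in duodenum nor Scap in either tissue was a DEG.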

How the results depend on the processing

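No member DEG changed sign under any alternative run. Of the single-member values under alternatives 2122 moved by less than 1 SD between replicates and 30 by more. Liver, with 0 member DEGs, had 1 under median ratio scaling, 2 with lane as a covariate and 4 with the replicate block. All-gene shares there were 5.69%, 9.23% and 10.5%. Without single libraries it had 0 to 4, beside 2.79% to 10.2% of all genes. WAT, with 3, had 5 with the block (24.9% of all genes) and 2 to 7 without single libraries (18.5% to 28.1%). Duodenum, with 0, had 3 with the block (2.47%) and 0 to 10 without single libraries (up to 6.97%). Jejunum, with 15, ran from 9 to 18 (4.25% to 9.84%), and ileum, with 2, from 0 to 3 (2.91% to 7.15%). The member counts thus moved along with those of all genes in part. Medians over members that were not DEGs did change sign: in muscle -0.06 became 0.20 with lane and 0.01 without sham 3, and in liver -0.09 became 0.03 without RYGB 3. The cause was not tested. The median correlation between enzymes was 0.25 under median ratio scaling and 0.03 at a minimum of 10 CPM in muscle (0.39 as reported), and at that minimum 0.79 in duodenum and 0.36 in ileum, where fewer genes were tested. Replicate numbers were shared between groups, and the 23 same-numbered pairs correlated between -0.281 and 0.389, with 0 tissues above 0.1 in every pair. Such correlations neither show nor exclude a pairing of the samples by number. The replicate block left 15 member DEGs in jejunum, 2 in ileum and 0 in muscle, beside 8.84%, 5.4% and 1.54% of all genes. Depth is unknown, so that the counting error of low members such as Idi1 cannot be given.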
